A study of Homo sapiens with 6 samples.

Results

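The genes described here are 10 members of Toll-like receptor signaling. These are the receptors TLR2, TLR3, TLR4 and TLR6, the adaptor MYD88, the IRAK family genes IRAK1, IRAK2, IRAK3 and IRAK4, and the ubiquitin ligase TRAF6. They were taken by symbol from a table of 30267 genes, and all 10 were listed. RNA-seq was performed on SW839, a cell line established from a renal cell carcinoma. The shRNF25 group had 3 libraries and carried a lentiviral hairpin against RNF25, and the shControl group had 3 libraries and carried the pLKO vector. According to the study's methods, stable lines of both groups were selected with puromycin, and no Toll-like receptor ligand is mentioned for either group. The series has 1 name for the hairpin in its libraries, so the knockdown and other effects of that hairpin cannot be told apart. The comparison asks how the RNA of these receptors and their signaling proteins changed when RNF25, an E3 ubiquitin ligase, was knocked down.

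Toll-like receptors recognize microbial products and molecules released from damaged cells. Most of them bind MYD88 through a TIR domain, and MYD88 assembles with IRAK4 and then IRAK1 or IRAK2 into a complex that passes the signal to TRAF6 and on to NF-κB, as the interleukin-1 receptors also do. TLR2 works as a pair with TLR1 or TLR6 at the cell surface, TLR4 recognizes lipopolysaccharide with its partners LY96 and CD14, TLR3 senses double-stranded RNA through the adaptor TICAM1 (TRIF) in place of MYD88, and IRAK3 (IRAK-M), known mainly from macrophages, dampens the pathway.

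Between 18647460 and 19943154 reads per library fell on genes. Values are normalized counts, that is, reads divided by 1 size factor per library by the authors. RNF25 itself had 694.2, 533.5 and 536.4 in shControl and 214.1, 245.7 and 265.0 in shRNF25, so that the target was lower in each library labelled as knockdown. Control libraries varied more than shRNF25 libraries, with Pearson correlations across genes from 0.976 to 0.987 between control pairs and 0.994 between any shRNF25 pair. Both lower control values came from pairs with shControl replicate 1. The control libraries have names that form no numbered series, whereas the shRNF25 libraries share 1 name with running numbers. Whether the controls were made or sequenced at other times than the shRNF25 libraries is not stated in the sources used here. Any such difference in origin would follow the same split as the hairpin, and its part in the results was not tested. Of the 7 renal epithelial markers, 6 were listed and PAX2 was not. KRT8 and KRT18 were abundant and PAX8 lay between 76.7 and 140.3. CA9, at 1.85 to 50.7, and CDH6, at 0 to 13.0, did not reach the level for testing. VIM (vimentin), on the same list, had 447.7, 415.5 and 202.9 in shControl and 803.7, 881.9 and 810.2 in shRNF25 and was the only one of them called (log2 fold change 1.31, adjusted p = 0.00805, limma). Leukocyte markers were scarce. PTPRC had 3.81 to 14.6, CD3E had 3 reads or fewer in every library, and the 6 listed of 8 markers summed to 55.3 to 69.1 in shControl and 64.6 to 94.8 in shRNF25, where ITGAM was higher (log2 fold change 0.86, adjusted p = 0.0465, limma). Endothelial markers summed to 489.4 to 695.1 in shControl and 494.1 to 645.1 in shRNF25. Most of that sum was PECAM1, which was not called (log2 fold change 0.17), whereas CDH5 was lower (-4.12) and KDR higher (1.78). Fibroblast markers, nearly all COL1A1, summed to 1107 to 1291 and 865.3 to 1012. COL1A1 was called lower (log2 fold change -0.37, adjusted p = 0.0479, limma). The part of these shifts in the results was not tested.

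Knockdown cells had less RNA of IRAK2 and of the cell surface receptors TLR6 and TLR2. MYD88, IRAK4, IRAK1 and TRAF6 did not pass the test in either direction. IRAK2 fell to 43.2% of its control mean, TLR6 to 52.6% and TLR2 to 60.6%. Of the 10 genes, 8 reached a normalized count of 10 in 3 or more libraries and were tested with limma among 16554 genes on the log2(normalized count + 1) scale, with Benjamini-Hochberg adjustment. At an adjusted p below 0.05, 3 of the 8 were lower and 0 were higher, and each of the 3 also passed the fold change of at least 1.5 that the study's methods set. Over all genes tested, 21.3% were called, 10.8% lower and 10.5% higher, and with that fold change 15.7% were called, 7.1% lower and 8.65% higher. Without shRNF25 replicate 1, 2 or 3, only 1 member, IRAK2, was called lower by limma. At an unadjusted p below 0.05, limma also gave 0 higher members, as did edgeR and DESeq2 at an adjusted p below 0.05. Quantile normalization gave 1, IRAK1 (log2 fold change 0.42, adjusted p = 0.0294, limma). The median log2 fold change of the 8 tested members was -0.20, against -0.01 over all genes tested. In bulk RNA, fewer expressing cells and less RNA per cell cannot be told apart.

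**Figure D1:**
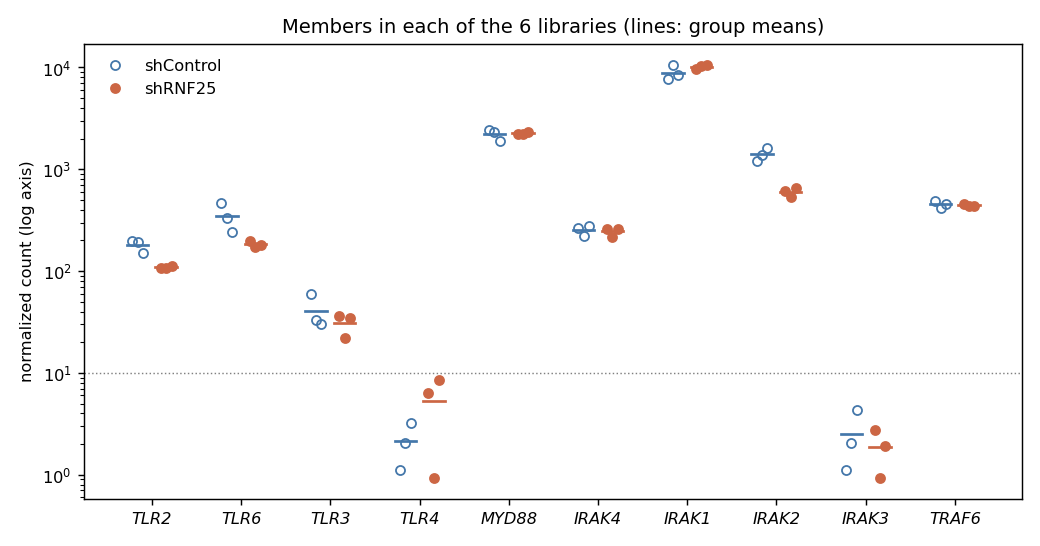
Normalized count (log axis) of the 10 genes in each library, open circles for the 3 shControl and filled circles for the 3 shRNF25 libraries, with lines at the group means and a dotted line at 10. The 2 groups are separated for TLR2, TLR6 and IRAK2, overlap for TLR3, MYD88, IRAK4, IRAK1 and TRAF6, and lie below the dotted line for TLR4 and IRAK3.

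IRAK2, which can stand beside IRAK1 in the MYD88 complex, had normalized counts of 1201, 1366 and 1624 in shControl and 613.2, 536.6 and 659.6 in shRNF25. The highest shRNF25 library lay far below the lowest control. This was a log2 fold change of -1.20 with a standard error of 0.140 and a 95% interval from -1.52 to -0.89 (adjusted p = 0.00057, limma). The exact permutation test, two-sided, gave p = 0.1 and cannot give less with 3 libraries in each group. This was the only member whose call held in each fit that left out 1 library, where its log2 fold change ranged from -1.31 to -1.09.

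TLR6, which pairs with TLR2 to recognize diacylated lipopeptides, had 470.9, 334.5 and 242.8 in shControl and 195.9, 173.6 and 182.1 in shRNF25. The control libraries spread widely, with a coefficient of variation of 32.9% against 6.12% in shRNF25, and still did not overlap with the knockdown. TLR6 changed by -0.87 on the log2 scale, with a standard error of 0.219 (adjusted p = 0.0215, limma), and the exact permutation test gave p = 0.1. Without shControl replicate 1, the highest library, it was -0.63 (adjusted p = 0.0105, limma). The call was lost without shControl replicate 2 (adjusted p = 0.0615, limma) and without shRNF25 replicate 1, 2 or 3 (0.0700, 0.0834 and 0.0783, limma).

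TLR2, the shared partner in receptors for bacterial lipoproteins, had 195.7, 193.9 and 150.0 in shControl and 108.4, 106.2 and 112.5 in shRNF25. The knockdown libraries lay within a narrow band below all controls. TLR2 changed by -0.71 on the log2 scale, with a standard error of 0.158 (adjusted p = 0.0132, limma), and the exact permutation test gave p = 0.1. Leaving out shRNF25 replicate 1, 2 or 3 ended the call as well (adjusted p = 0.0636, 0.0671 and 0.0554, limma), at nearly the same size (-0.70, -0.69 and -0.73 on the log2 scale).

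**Figure D2:**
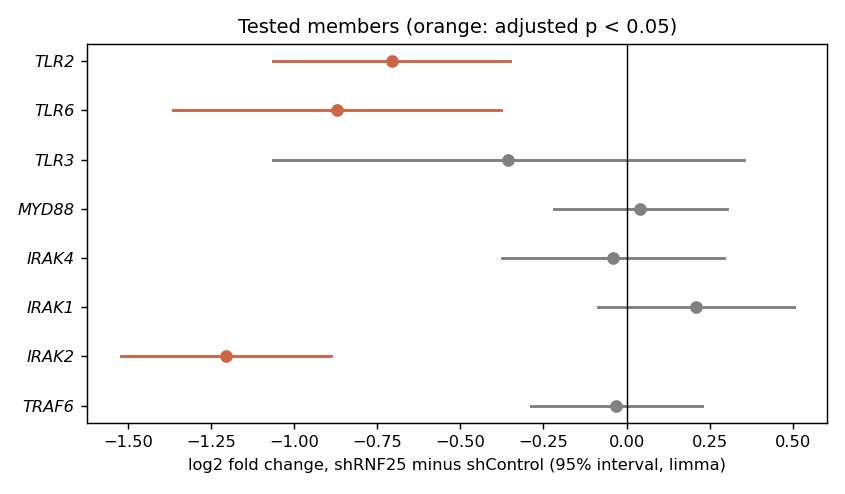
Log2 fold change (shRNF25 minus shControl) of the 8 tested members, as points with 95% intervals from limma, in orange where the adjusted p was below 0.05. The intervals of IRAK2, TLR6 and TLR2 lie below 0, and those of TLR3, MYD88, IRAK4, IRAK1 and TRAF6 include 0.

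The groups of these 3 genes did not overlap, as was the case for 42.5% of all genes tested and, with shRNF25 below shControl, for 21.8%. None of the other 5 tested members was separated in this way. Since the size factor cancels out in a ratio of 2 genes of the same library, members were also compared within libraries, per kilobase of annotated exons. IRAK2 made up 17.9%, 14.9% and 22.0% of the IRAK1 level in shControl and 7.31%, 6.0% and 7.11% in shRNF25, a change of -1.41 in the log2 ratio. TLR2 relative to MYD88 went from 6.22% ± 0.191 (SD, n = 3) to 3.69% ± 0.0613 (SD, n = 3), and TLR6 relative to MYD88 from 10.3% ± 2.33 (SD, n = 3) to 5.38% ± 0.369 (SD, n = 3). The fourth ratio, IRAK2 to IRAK4, had a change of -1.16 in the log2 ratio. The groups did not overlap for any of the 4 ratios (exact permutation test, p = 0.1 for each ratio and also after adjustment over the 4). How often ratios of other genes are separated in this way was not computed. The ratios do not depend on the size factors. They set the 3 called members against members that were not called, so their fall restates those calls and is no separate test.

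TLR6 and TLR1 are close relatives and neighbors on chromosome 4, which bears on how their reads were assigned. In GENCODE 29 (GRCh38), TLR6 lies from 38823715 to 38856817 and TLR1 from 38790677 to 38856817, both on the minus strand, so that they share an annotated outer boundary and 57 bases of exon. Of the 50-base words in the longest coding transcript of TLR6, 4.22% also occur in TLR1, and 8.5% of those of TLR1 occur in TLR6. TLR1, the alternative partner of TLR2 and not one of the 10 genes, had 130.4, 105.7 and 86.3 in shControl and 33.7, 31.4 and 28.6 in shRNF25 (log2 fold change -1.73, standard error 0.208, adjusted p = 0.000652, limma). All 3 knockdown libraries were thus below all controls for this receptor too. With the reads of both genes summed, a step added after the annotation had been read, the log2 fold change was -1.04 (adjusted p = 0.00694, limma). As both genes were lower, their sum had to be lower too, and it cannot show how reads were divided between TLR6 and TLR1. TLR2 lies on the long arm of the same chromosome (153684070 to 153705702, plus strand) and IRAK2 on chromosome 3 (10164865 to 10243743, plus strand), and neither overlaps another annotated gene.

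The sequences directly before the RefSeq starts of the 3 genes that fell are shown because these genes moved in the same direction. Each line gives the 250 bases before the RefSeq start (GRCh38.p14), 5′ to 3′ on the strand of the gene, for IRAK2 at chr3:10164669-10164918 (plus strand), TLR2 at chr4:153684030-153684279 (plus strand) and TLR6 at chr4:38856818-38857067 (minus strand). GENCODE 29 places the starts of TLR2 and IRAK2 further upstream, so that most of the TLR2 window and the last bases of the IRAK2 window lie inside the gene boundaries given above. Capitals mark GGG, any 5 bases and CC, the outer letters of many NF-κB sites, searched on both strands, with overlapping matches run together.
IRAK2: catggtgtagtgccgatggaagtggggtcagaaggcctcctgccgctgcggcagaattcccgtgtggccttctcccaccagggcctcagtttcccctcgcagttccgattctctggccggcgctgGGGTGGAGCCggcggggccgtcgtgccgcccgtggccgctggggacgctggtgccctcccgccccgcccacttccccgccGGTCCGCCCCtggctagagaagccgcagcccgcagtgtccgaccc
TLR2: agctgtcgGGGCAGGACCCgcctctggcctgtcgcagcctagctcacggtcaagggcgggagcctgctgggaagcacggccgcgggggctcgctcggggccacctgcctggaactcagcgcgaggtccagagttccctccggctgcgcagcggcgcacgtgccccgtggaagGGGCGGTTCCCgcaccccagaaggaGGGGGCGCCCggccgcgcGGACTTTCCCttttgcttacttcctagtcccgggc
TLR6: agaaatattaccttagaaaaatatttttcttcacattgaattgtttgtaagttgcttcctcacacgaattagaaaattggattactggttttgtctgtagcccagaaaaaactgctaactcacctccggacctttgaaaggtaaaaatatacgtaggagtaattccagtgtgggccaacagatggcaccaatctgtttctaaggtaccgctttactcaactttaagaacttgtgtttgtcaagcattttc
The windows of IRAK2 and TLR2 were 72.0% and 72.4% G or C, with 24 and 26 CG dinucleotides, whereas that of TLR6 was 36.4% G or C with 4. Over all 35116 windows in the table, the medians were 58% and 11. The loose pattern occurred 2 times in IRAK2, 6 times in TLR2 and 0 times in TLR6, and at least once in 54.4% of all windows and in 7 of the 10 members, IRAK1 and MYD88 among them. The narrower κB consensus was GGGRNYYYCC, with R for A or G, Y for C or T and N for any base. It had a match in 6.88% of all windows and in 0 of the 10 members, which says only that these letters are not in these windows. Which starts SW839 cells use was not measured.

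MYD88, the adaptor shared by most Toll-like receptors and the interleukin-1 receptors, had 2409, 2310 and 1900 in shControl and 2231, 2243 and 2303 in shRNF25. The knockdown libraries lay inside the range of the controls. Its log2 fold change was 0.04 with a 95% interval from -0.22 to 0.30 (adjusted p = 0.828, limma), so that a change as large as that of TLR2 lay outside the interval in either direction.

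IRAK4, the kinase that MYD88 binds first, had 263.1, 219.6 and 274.1 in shControl and 259.7, 214.3 and 261.2 in shRNF25. The groups covered nearly the same range, and the log2 fold change was -0.04 with a 95% interval from -0.38 to 0.29 (adjusted p = 0.870, limma). TRAF6, the ubiquitin ligase to which the IRAK kinases hand on the signal, had 486.4, 420.7 and 455.5 in shControl and 453.8, 439.6 and 438.5 in shRNF25. Again the knockdown values lay inside the control range, and the log2 fold change was -0.03 with a 95% interval from -0.29 to 0.23 (adjusted p = 0.876, limma). The pseudogene TRAF6P1 shares 4.15% of the 50-base words of the longest TRAF6 transcript.

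IRAK1 was the most abundant member, with 7686, 10503 and 8465 in shControl and 9634, 10271 and 10653 in shRNF25. The highest control exceeded 2 of the 3 knockdown libraries. The log2 fold change was 0.21 with a 95% interval from -0.09 to 0.50 (adjusted p = 0.288, limma). Quantile normalization alone among the alternatives called it higher, at 0.42 (adjusted p = 0.0294, limma).

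TLR3, the endosomal receptor for double-stranded RNA, had 59.7, 32.8 and 30.2 in shControl and 36.4, 22.2 and 34.3 in shRNF25, which rest on 24 to 54 reads. One control library stood above the other 5 libraries, which overlapped. The log2 fold change was -0.36 with a wide 95% interval from -1.06 to 0.35 (adjusted p = 0.457, limma), and a fall of the size seen for TLR2 or TLR6 could not be told apart from no change at this depth.

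TLR4, the lipopolysaccharide receptor, and IRAK3 were barely detected and were not tested. TLR4 had 1, 2 and 3 reads in shControl and 7, 1 and 9 in shRNF25, a ratio of 2.46 with a 95% interval from 0.926 to 7.63. IRAK3 had 1, 2 and 4 reads in shControl and 3, 1 and 2 in shRNF25, a ratio of 0.745 with an interval from 0.207 to 2.59. Both intervals are exact binomial ones on the summed reads, cover counting error only and include 1. The genes of the partners of TLR4 were also too scarce for testing, with LY96 at 3.08 to 11.9 and CD14 at 2.16 to 8.31. The lipopolysaccharide-binding protein LBP was at 0 to 3.32.

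Per kilobase of annotated exons, the levels in shControl ran from IRAK1 (2221 ± 364, SD, n = 3) over MYD88 (553.0 ± 67.7), IRAK2 (401.0 ± 61.3), TRAF6 (93.2 ± 6.75), TLR6 (57.9 ± 19.0), IRAK4 (44.8 ± 5.13), TLR2 (34.5 ± 4.96) and TLR3 (6.09 ± 2.43) to IRAK3 (0.249 ± 0.165) and TLR4 (0.161 ± 0.0805). Neighbors in this order were separated in all 3 control libraries except TLR6 and IRAK4, and IRAK3 and TLR4, whose ranges overlapped. In shRNF25 the order of the upper 4 was the same, with IRAK2 at 173.2 ± 17.8 (SD, n = 3) between MYD88 and TRAF6. TLR6 stood below IRAK4 there, at 30.5 ± 1.86 against 43.5 ± 4.74 (SD, n = 3), with no overlap. In both groups, MYD88 and IRAK1 thus stood above each of the 4 receptors on this per-length scale.

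Among the tested genes outside the lists, the pattern over the 6 libraries most like that of IRAK2 was that of MAP3K8, with a root mean square difference of 0.0750 between log2 values centred on their means. It had 153.7, 170.3 and 181.3 in shControl and 72.0, 68.3 and 76.3 in shRNF25. PFKP (0.0907) and IL13RA2 (0.107) came next. Much of this likeness reflects the common split into groups, and 6 libraries allow no finer statement.

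The other genes of the pathway were described by lists compiled by hand with earlier results of these data known. Of 82 symbols, 80 were in the table and 68 were tested, with a median log2 fold change of -0.53. At an adjusted p below 0.05, 33 were lower and 6 higher (limma). The 33 include 12 NF-κB output genes and 6 genes of endogenous ligands, which are not signaling steps. Of the downstream ubiquitin and kinase steps, 2 of 12 were lower, and of the TRIF and interferon arm, 2 of 7. Over all genes tested, 10.8% were lower and 10.5% higher, so the count of higher pathway genes was no larger in proportion than among all genes. Leaving out shRNF25 replicate 1, 2 or 3 left 2, 3 and 2 higher genes. Among the other Toll-like receptors, TLR1 fell as given above, TLR5, the flagellin receptor, had a log2 fold change of 0.13 (adjusted p = 0.750, limma), and TLR7, TLR9 and TLR10 did not reach the level for testing. Of the chaperones that fold receptors or carry them, HSP90B1 (gp96) fell from 14210 ± 3332 to 8424 ± 766.0 (SD, n = 3 each; log2 fold change -0.73, adjusted p = 0.0138, limma), and UNC93B1 and CNPY3 did not pass.

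The other adaptors with a TIR domain went different ways. TICAM1, the adaptor of TLR3, had 2137, 1659 and 1753 in shControl and 1142, 1153 and 1107 in shRNF25 (log2 fold change -0.70, standard error 0.120, adjusted p = 0.00386, limma). SARM1, which is described as a brake on TICAM1 signaling and as an enzyme that cleaves NAD, had 109.4, 110.8 and 134.9 in shControl and 226.9, 215.2 and 200.2 in shRNF25 (log2 fold change 0.85, standard error 0.149, adjusted p = 0.00417, limma). Neither pair of groups overlapped. TIRAP, which links MYD88 to TLR2 and TLR4, had 231.0, 170.3 and 211.5 against 204.1, 227.2 and 215.4 (log2 fold change 0.09, adjusted p = 0.722, limma), and TICAM2 had at most 1.08.

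Of the interleukin-1 receptor family, which feeds into the same MYD88 complex, 2 of 5 tested genes were lower and 0 higher. Among all genes tested, 10.8% were lower and 10.5% higher. IL18R1, a chain of the interleukin-18 receptor, fell by 1.09 on the log2 scale (adjusted p = 0.00384, limma) and IL1RAP, the accessory chain of the interleukin-1 receptor, by 0.69 (adjusted p = 0.0252, limma). IL1R1 had -0.52 and did not pass (adjusted p = 0.123, limma). IL1B, whose product binds IL1R1 together with IL1RAP, was among the NF-κB output genes that fell most in this comparison.

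Downstream of TRAF6, 12 genes of ubiquitin and kinase steps were tested, of which 2 were lower and 1 higher, a share near the 21.3% called in either direction over all genes tested. PELI3, a Pellino ubiquitin ligase that acts on IRAK kinases, fell by 0.66 (adjusted p = 0.0186, limma), and UBE2N (Ubc13), the conjugating enzyme that works with TRAF6, fell by 0.55 (adjusted p = 0.0121, limma). IKBKB, a kinase of the IκB kinase complex, was higher by 0.43 (adjusted p = 0.0244, limma). In the TRIF and interferon arm, 2 of 7 were lower and 1 higher, against 10.8% and 10.5% of all genes tested. IKBKE, a kinase of interferon regulatory factors, went from 1552 ± 177.1 to 766.1 ± 50.6 (SD, n = 3 each; log2 fold change -1.01, adjusted p = 0.000592, limma), IRF5 fell by 0.53 (adjusted p = 0.0256, limma) and RIPK1 was higher by 0.58 (adjusted p = 0.00729, limma).

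Of 8 negative regulators, 5 were lower and 0 higher, against 10.8% and 10.5% of all genes tested. TNFAIP3 (A20), which takes ubiquitin chains off TRAF6, had a log2 fold change of -2.19, its partner TNIP1 one of -1.90 and the RNase ZC3H12A, which degrades cytokine messages, one of -2.01 (adjusted p = 1.64e-05, 1.11e-05 and 0.000175, limma). CYLD fell by 0.44 (adjusted p = 0.0381, limma). MIR3142HG, the host transcript of miR-146a, had 152.6, 152.9 and 155.4 in shControl and 10.9, 15.7 and 31.5 in shRNF25 (log2 fold change -3.05, standard error 0.329, adjusted p = 0.000376, limma). IRAK1 and TRAF6 are known targets of that miRNA, whose mature form was not measured here. TOLLIP, RNF216 and TRAFD1 did not pass.

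**Figure D3:**
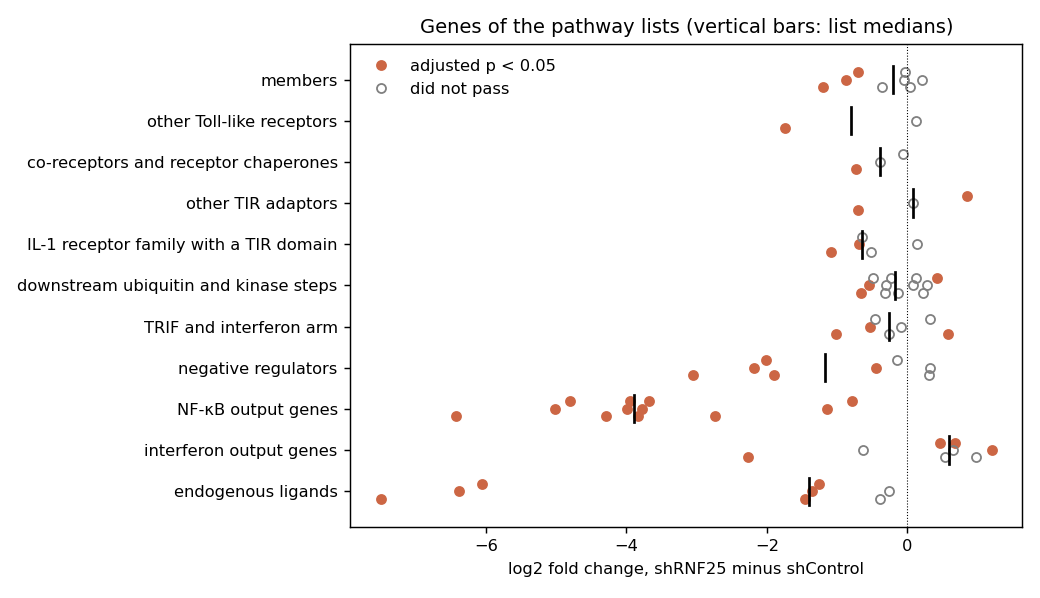
Log2 fold change (shRNF25 minus shControl) of the tested genes in each list, filled where the adjusted p from limma was below 0.05 and open otherwise, with vertical bars at the list medians. The members and the receptor, adaptor and kinase lists have medians between -0.80 and 0.09, whereas the NF-κB output genes have a median of -3.89 and the interferon output genes one of 0.60. S100A8 and SAA2, among the endogenous ligands, had 3 reads or fewer in every shRNF25 library, so that their points depend on the pseudocount.

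Of the genes that the pathway switches on, 10 of the 12 listed fell by more than IRAK2. All 12 listed NF-κB output genes were lower, with log2 fold changes from -6.42 (IL1B) and -5.02 (IL1A) over -4.81 (PTGS2), -4.30 (TNF), -3.99 (CXCL3), -3.95 (CCL20), -3.83 (IL6), -3.78 (CXCL1), -3.68 (CXCL8) and -2.74 (CXCL2) to -1.15 (NFKBIA) and -0.79 (NFKBIZ), the last about the size of the change in TLR6. For TNF the shRNF25 values were 0.911, 1.85 and 8.58, so the size of its fall is known only roughly. Of the 8 tested interferon output genes, which TICAM1 and the interferon regulatory factors induce, 3 were higher and 1 lower. The shares over all genes tested, for both output lists, were 10.5% higher and 10.8% lower. IFIT2 rose by 1.21, MX1 by 0.68 and OAS1 by 0.47 on the log2 scale (adjusted p = 0.000234, 0.0356 and 0.0368, limma), whereas the chemokine CXCL10 fell by 2.27 (adjusted p = 0.00212, limma). IFNB1 itself did not reach the level for testing.

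**Figure D4:**
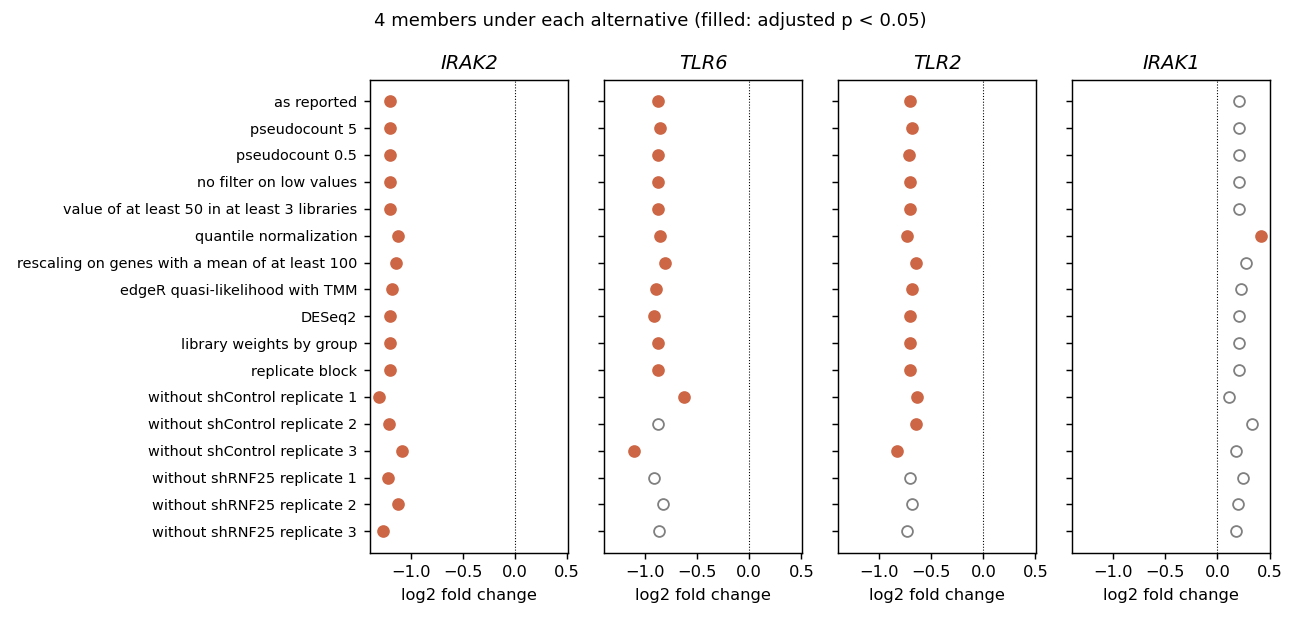
Log2 fold change of IRAK2, TLR6, TLR2 and IRAK1 as reported and under 16 alternatives, filled where the adjusted p was below 0.05. IRAK2 lies between -1.31 and -1.09 and is filled throughout, TLR6 and TLR2 lie below 0 throughout and are open in 4 and 3 alternatives that leave out 1 library, and IRAK1 is filled once, under quantile normalization.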

How the data were processed

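Total RNA from 6 libraries of SW839 cells was depleted of ribosomal RNA and sequenced from a stranded kit. Groups came from the sample titles, since the treatment field mentions the shRNF25 plasmid for controls too. The submitters' processing notes name fastp, HISAT2, HTSeq and GRCh38, and the paper names DESeq2 for the differential expression. The annotation and the strand setting of the counting are not given in the sources used here. The authors deposited normalized counts, a signal in which each library's reads are scaled by 1 size factor. Dividing by the smallest step gave whole reads for 100% of values (tolerance 0.001 reads).

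Values of log2(normalized count + 1) were fitted with limma 3.58.1 in R 4.3.3 (lmFit, eBayes with trend, group as the only term) for genes that reached 10 in 3 or more libraries, with Benjamini-Hochberg adjustment. Alternatives were a pseudocount of 5 or 0.5, no filter, a filter of 50, quantile normalization, rescaling on genes averaging 100 or more, DESeq2 1.42.0 and edgeR 4.0.16 on the recovered reads, library weights, the replicate number as a block and each library left out. The fits were tested on simulated data. Members and lists were chosen with earlier results of these data known. Named were the members, RNF25, genes of the pathway lists past both criteria or in pathway lists of up to 4 genes, and the 3 genes nearest to IRAK2, and other names, cell type markers among them, were added after their values were seen. Exon lengths and positions came from GENCODE 29, matched by symbol, and promoters from RefSeq, where all 10 members matched. Protein sequences were not used here. The 3 libraries per group are described as biological triplicates, without word on separate cultures.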

Additional observations from a re-analysis of the deposited data

How the results depend on the processing

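The log2 fold changes of IRAK2 and RNF25 kept their direction and their call under all 16 alternatives, as did the direction of TLR2 and TLR6. TLR6 stayed between -1.11 and -0.63 and TLR2 between -0.83 and -0.64 in the fits that left out 1 library, where the call of TLR6 was lost 4 times and that of TLR2 3 times. In these fits 1 to 3 members were lower, also past the fold change of at least 1.5, with 1 in each fit without a shRNF25 library, and 2 to 8 other pathway genes were higher and 27 to 37 lower. Fits with fewer shRNF25 libraries called fewer genes of any kind (860 to 874 lower and 768 to 852 higher, against 1785 and 1740), and the fit without shControl replicate 1 called 2986 and 2612. Quantile normalization gave 1 higher member, IRAK1 at 0.42. Members near 0 changed sign without a call. TRAF6 was 0.03 under quantile normalization (0.0278) and rescaling (0.0320) and ranged from -0.0843 to 0.0201 when a library was left out, IRAK4 was 0.0212 under rescaling and ranged from -0.14 to 0.0523, and MYD88 ranged from -0.0623 to 0.11. The cause was not tested.

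The replicate number does not pair the libraries. Deviations of same-numbered libraries correlated at -0.0874 to 0.0471, and 0 of the 6 libraries correlated best with their own number. With the replicate block 3 members were lower and 0 higher, TLR2 had -0.71 (adjusted p = 0.0232, limma), TLR6 -0.87 (0.00752) and IRAK2 -1.20 (0.000158), and no call of a member changed. Per kilobase of the longest coding transcript, the shControl levels of MYD88 (774.0), IRAK4 (58.9) and TLR2 (42.8) moved by more than their SD. Depth limits TLR3, TLR4 and IRAK3, as given above.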

Other observations

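Genes of endogenous ligands that have been described for TLR2 and TLR4 were also listed. Of 8 tested, 6 were lower and 0 higher in shRNF25 at an adjusted p below 0.05 (limma), with a median log2 fold change of -1.40. Among all genes tested, 10.8% were lower and 10.5% higher. The acute-phase genes SAA1 and SAA2, near-identical copies between which reads may be exchanged, had 668.8, 1089 and 864.5, and 185.7, 146.7 and 116.6, in shControl, against 4.56, 1.85 and 5.72, and 1.82, 0 and 0.953, in shRNF25. S100A8 had 116.1, 178.5 and 101.5 in shControl and 0.911, 0.924 and 0.953, which is 1 read each, in shRNF25. Its partner S100A9 fell less, from 4276 ± 897.3 to 1775 ± 169.5 (SD, n = 3 each; log2 fold change -1.25, adjusted p = 0.000987, limma). The matrix proteins TNC and VCAN fell by 1.45 and 1.35 on the log2 scale (adjusted p = 0.000474 and 0.000827, limma). HMGB1, with -0.25, and HSPD1, with -0.39, did not pass (adjusted p = 0.174 and 0.0783, limma), and BGN did not reach the level for testing.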
